A study of Homo sapiens
Mus musculus with 2 samples.

Results

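Actins and the proteins that bind them were described in single cells of the mouse colonic epithelium. The genes were chosen by name from earlier results of the same data: the cytoplasmic actins Actb and Actg1, the monomer-binding thymosins Tmsb4x and Tmsb10, profilin Pfn1, the Arp2/3 subunit Arpc2, the membrane linker ezrin (Ezr), alpha-actinin-4 (Actn4) and cofilin Cfl1. Of these 9 genes 8 were analysed, among the 25504 genes listed in both libraries, and Cfl1 was not analysed here. Their class levels were known when they were picked, so these are given as a description with no p-value, and tests are given only for other genes of actin lists. The cells came from 1 untreated wild-type C57Bl6 mouse. Its colonic epithelial cells were released with EDTA followed by enzymes (collagenase, DNase), dead cells were depleted magnetically (MACS), and K562, a human leukaemia line not analysed here, was spiked in. Cells were captured by inDrop, which puts single cells with a barcode into droplets, and RNA was amplified by CEL-Seq, which reads the 3' end of a transcript. The 2 libraries, replicates 1 and 2, hold different cells of the same animal from a single sequencing run and form 1 group. P-values therefore cover only how far class differences vary from 1 library to the other, which may be technical.

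Actin cycles between monomers and filaments. Thymosins and profilin hold the monomer pool, with profilin feeding growing ends, the Arp2/3 complex starts branches, and cofilin and its relatives take old filaments apart. In an absorptive enterocyte filaments are bundled into the core of each microvillus by villin, plastin-1, espin and Eps8, tied to the membrane by ezrin and its partner Slc9a3r1 (NHERF1), and anchored in a terminal web of myosin II and spectrin. In lymphocytes actin drives migration and the contact with a target cell, through regulators largely restricted to blood cells such as coronin-1A, Rac2 and L-plastin (Lcp1).

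Replicate 1 held 8602490 unique molecular identifiers (UMIs, single captured molecules) and replicate 2 held 3951918, and after removal of likely doublets 1651 and 631 cells remained. Clusters were formed without any actin list gene and named from marker genes. They gave 5 epithelial classes with at least 10 cells in each library: colonocyte-like (absorptive) cells (524 and 171 cells in replicates 1 and 2), goblet-like cells (277 and 69), Reg4-positive deep crypt secretory-like cells (251 and 70), a stem/cycling class (144 and 33) and a cycling-like class (106 and 43). A T cell-like cluster held 48 and 10 cells. Cluster 2 (203 and 170 cells), cluster 8 (54 and 50) and cluster 10 (33 and 12) stayed unnamed. These and a tuft-like cluster (11 and 3) were left out of the main class comparisons. The 12 colonocyte markers summed to 35208 and 27560 CPM (UMIs of a gene scaled to 1000000 UMIs in the summed cells) in colonocyte-like cells, against 2243 to 8194 CPM in the other epithelial classes. Leading genes of the stem/cycling cluster were Reg3b, Csrp2, Cftr and Cdca7, and its cycling score of 1.18 lay above its stem score of 0.98. Mitochondrially encoded genes took a median 4.43% of the UMIs per barcode in the first library and 8.91% in the second. No barcode had identical counts in both libraries.

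Actb, the beta-actin gene, was highest in colonocyte-like cells. Its level there was 8678 CPM in replicate 1 and 7228 CPM in replicate 2. Goblet-like cells had 4085 and 3934 CPM, deep crypt secretory-like cells 2963 and 2434, cycling-like cells 3143 and 2341, and stem/cycling cells 2848 and 2309. Thus colonocyte-like cells lay above every other epithelial class in both libraries, goblet-like cells came next, and the 3 crypt classes overlapped. The T cell-like cells, at 7660 and 5354 CPM, overlapped with the colonocyte-like range. Fitted over both libraries, Actb in colonocyte-like cells was 1.67 ± 0.08 (SE) above the mean of the other 4 epithelial classes on the log2 scale. This fitted difference was 0.50 ± 0.08 in goblet-like cells and between -0.81 and -0.65 in the 3 crypt classes. The goblet value changed sign under 2 of 10 alternatives, to -0.07 at a coarser clustering resolution of 0.5 and to -0.05 against all other epithelial cells summed. Both change the reference: at resolution 0.5 no stem/cycling or cycling-like class was among the classes compared.

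Actg1, the gamma-actin gene, followed the same direction over a narrower range. Colonocyte-like cells had 3342 and 2985 CPM. The other epithelial classes lay between 1827 and 2608 CPM and overlapped with each other and with the T cell-like cells at 2339 and 2281. The fitted difference of colonocyte-like cells was 0.77 ± 0.08 on the log2 scale, against the 1.67 of Actb.

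Because both actins were counted in the same barcodes, their ratio does not depend on total depth. In colonocyte-like cells 2.60 Actb UMIs were counted per Actg1 UMI in replicate 1 (95% exact interval 2.54 to 2.66) and 2.42 in replicate 2 (2.33 to 2.52). The ratio was 1.93 and 1.51 in goblet-like cells. It was between 1.02 and 1.38 in deep crypt secretory-like, stem/cycling and cycling-like cells. T cell-like cells gave 3.28 (2.81 to 3.84) and 2.35 (1.67 to 3.35). These intervals cover counting error only, and the intervals of the 2 libraries did not overlap in colonocyte-like, goblet-like, deep crypt secretory-like or cycling-like cells. The muscle actins Acta1, Actc1 and Actg2 have coding sequences close to those of Actb and Actg1, and how the authors assigned shared reads is not given in the sources used here. Acta1 at 113 and 148 CPM in colonocyte-like cells is uncertain for that reason.

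**Figure D1:**
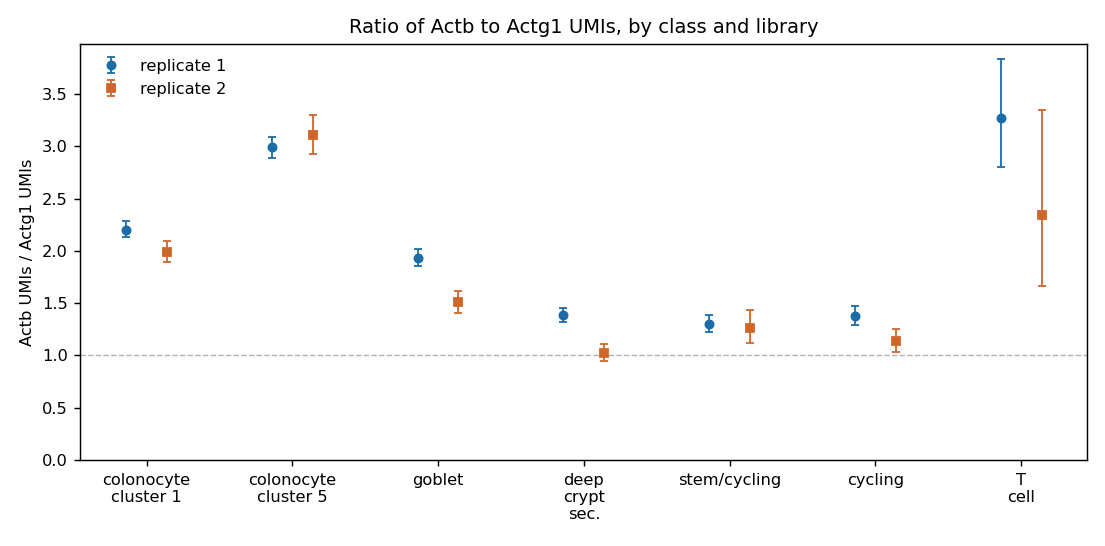
Ratio of Actb to Actg1 UMIs (vertical axis, no unit) in each colonocyte-like cluster and each other class, for replicate 1 (circles) and replicate 2 (squares), with 95% exact intervals from the counts. Cluster 5 lay near 3 in both libraries (2.99 and 3.11), cluster 1 at 2.20 and 1.99, and the deep crypt, stem/cycling and cycling classes between 1.02 and 1.38.

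The 2 thymosins were distributed differently. Tmsb4x, which encodes the main monomer-sequestering peptide, reached 13408 and 14386 CPM in the T cell-like class. Colonocyte-like cells had 2424 and 1801 CPM of it and goblet-like cells 2398 and 2030, which overlapped. The 3 crypt classes lay lower, between 824 and 1214 CPM. Tmsb10, its relative, was low throughout and had its lowest epithelial level in colonocyte-like cells, at 38.2 CPM from 108 UMIs and 60.1 CPM from 75 UMIs. Goblet-like cells had 111 and 173 CPM of Tmsb10 and deep crypt secretory-like cells 107 and 181 CPM, while stem/cycling cells (46.7 and 98.1) overlapped with colonocyte-like cells and, like cycling-like cells (71.9 and 96.6), stayed below both secretory classes. The fitted difference in colonocyte-like cells was -0.84 ± 0.17 for Tmsb10 and 1.00 ± 0.08 for Tmsb4x. In goblet-like cells both were higher, by 1.13 ± 0.16 and 1.15 ± 0.08. The predicted gene Gm9844, named here after its values were seen, had the profile over 10 clusters closest to that of Tmsb10, and it was counted at 292 and 375 CPM in colonocyte-like cells and at 908 and 1005 CPM in deep crypt secretory-like cells. Whether reads of Tmsb10 were shared with it was not tested, so that the level of Tmsb10 is uncertain.

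**Figure D2:**
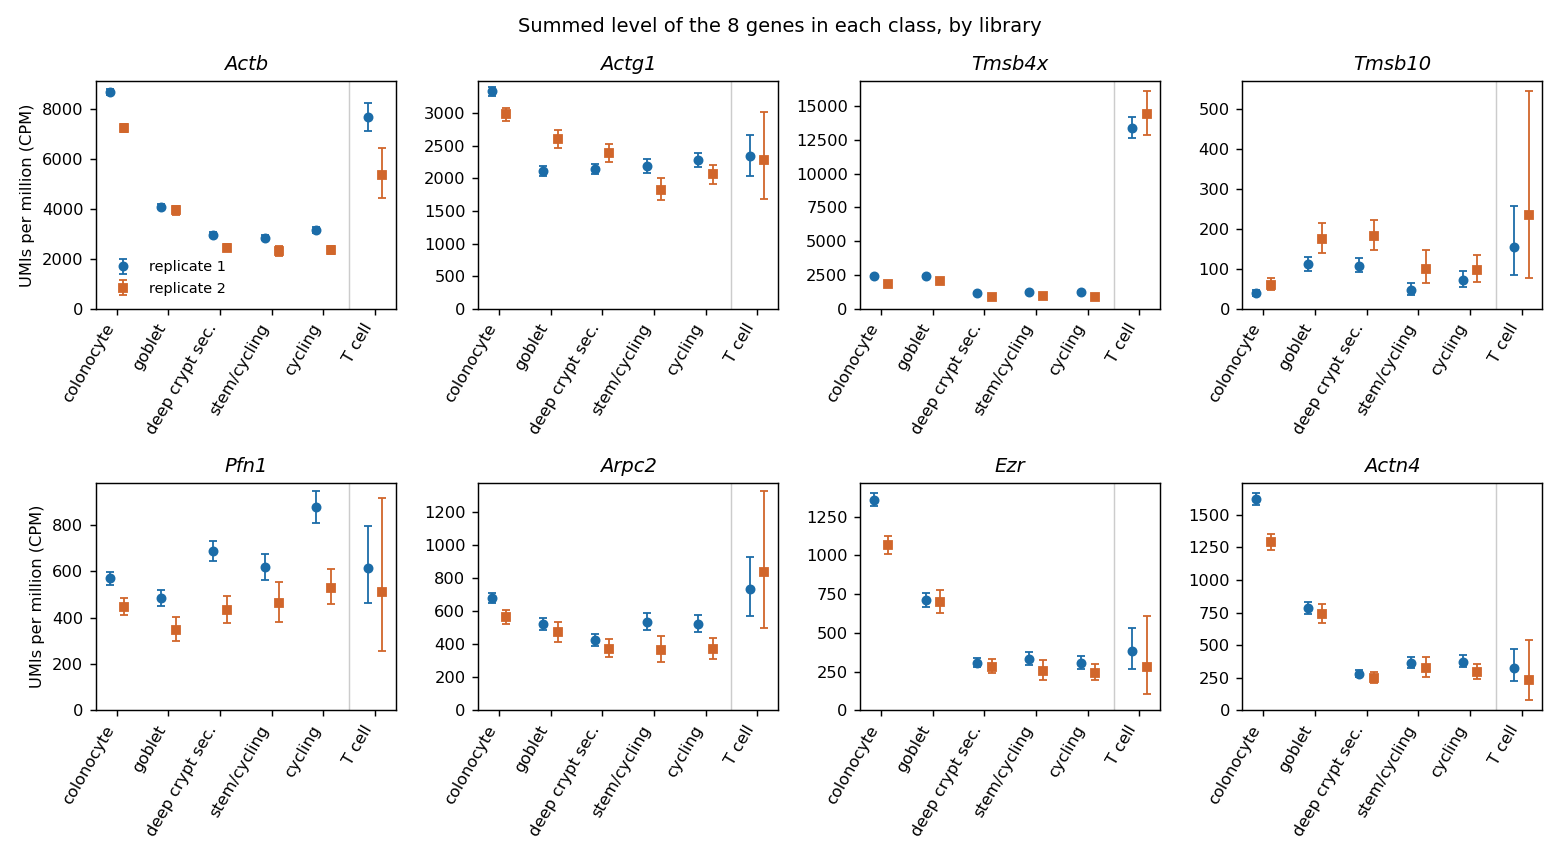
Summed level of each of the 8 genes in CPM (vertical axes, each starting at 0) in the 5 epithelial classes and the T cell-like class, for replicate 1 (circles) and replicate 2 (squares), with 95% exact Poisson intervals. Actb, Ezr and Actn4 stood highest in colonocyte-like cells among epithelial classes, and Tmsb4x stood at 13408 and 14386 in T cell-like cells.

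In CPM, Pfn1, profilin-1, was highest in cycling-like and lowest in goblet-like cells among the epithelial classes in both libraries. It was at 569 and 447 CPM in colonocyte-like cells, 484 and 348 in goblet-like cells, 687 and 431 in deep crypt secretory-like cells, 617 and 462 in stem/cycling cells and 876 and 529 in cycling-like cells. Replicate 2 was lower in each class, neighbouring classes overlapped over both libraries, and the fitted differences ran from -0.21 to 0.28. The fit, which uses composition scaling, gave another order, with stem/cycling cells lowest (-0.21) and goblet-like cells at -0.16. The colonocyte-like difference, 0.15 ± 0.10, changed sign under 3 of 10 alternative settings. Arpc2, a core subunit of the Arp2/3 complex, was at 678 and 563 CPM in colonocyte-like cells. The other 4 epithelial classes lay between 364 and 533 CPM and overlapped. Its colonocyte-like difference was 0.71 ± 0.09.

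Ezr and Actn4 had the largest fitted differences of the 8 genes in colonocyte-like cells. Ezr, the microvillar link from filament to membrane, was at 1361 and 1069 CPM in colonocyte-like cells, 711 and 700 in the goblet-like class and between 242 and 331.7 CPM in the 3 crypt classes. Actn4, a filament cross-linker of epithelial cells, was at 1620 and 1290 CPM, at 786 and 739 CPM and between 247 and 375 CPM in the same groups. For both genes the order colonocyte-like, goblet-like, crypt held in each library without overlap. Fitted differences of colonocyte-like cells were 2.00 ± 0.09 for Ezr and 2.14 ± 0.09 for Actn4. Over 10 clusters the log2 levels of Ezr and Actn4 correlated with Pearson's r of 0.96 in replicate 1 and 0.90 in replicate 2. These points share libraries and total-count scaling.

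The colonocyte-like cells formed 2 clusters. Cluster 1 (294 and 101 cells) was led by Fabp6, Slc37a2, Cldn8 and Atp12a, and cluster 5 (230 and 70 cells) by Aqp8, Cyp2c55, Car1 and Guca2a, genes of mature absorptive cells. Reg3g and Reg3b were also among the leading genes of cluster 5. The level of Actb was 6541 and 5641 CPM in cluster 1 and 11444 and 10147 CPM in cluster 5. Both libraries of cluster 5 lay above both libraries of cluster 1, and the fitted difference was 0.89 ± 0.11 on the log2 scale. Actg1 differed less, with 2967 and 2833 CPM against 3827 and 3264 CPM, a difference of 0.35 ± 0.11. Tmsb4x was at 1903 and 1424 CPM against 3098 and 2493 CPM (0.81 ± 0.11). Ezr was at 1064 and 914 CPM against 1746 and 1353 CPM (0.71 ± 0.12), and Actn4 at 1426 and 1169 CPM against 1871 and 1513 CPM (0.44 ± 0.11). For each of these genes the clusters did not overlap. Pfn1 (0.11 ± 0.13) and Arpc2 (0.25 ± 0.12) overlapped, at 567 and 434.3 against 572 and 471 CPM and at 673 and 504 against 685 and 671 CPM. Tmsb10 stayed low in both clusters, at 26.9 and 40.8 against 52.7 and 95.5 CPM (1.14 ± 0.25). When all genes outside the actin, mitochondrial and immediate early (early-response) lists formed the clusters, the fitted difference was 0.43 for Actb and -0.04 for Actn4.

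The Actb difference was also seen cell by cell. After each cell was thinned to 1000 UMIs, the median cell held 6 Actb UMIs in replicate 1 and 5 in replicate 2 of cluster 1, and 10 and 8 in cluster 5. At least 10 Actb UMIs were found in 18.4% and 14.9% of the cells of cluster 1 and in 53.0% and 44.3% of those of cluster 5. The ranges overlapped widely, from 0 to 29 in cluster 1 and from 0 to 42 in cluster 5 in replicate 1. The median deep crypt secretory-like cell held 2 in both libraries.

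**Figure D3:**
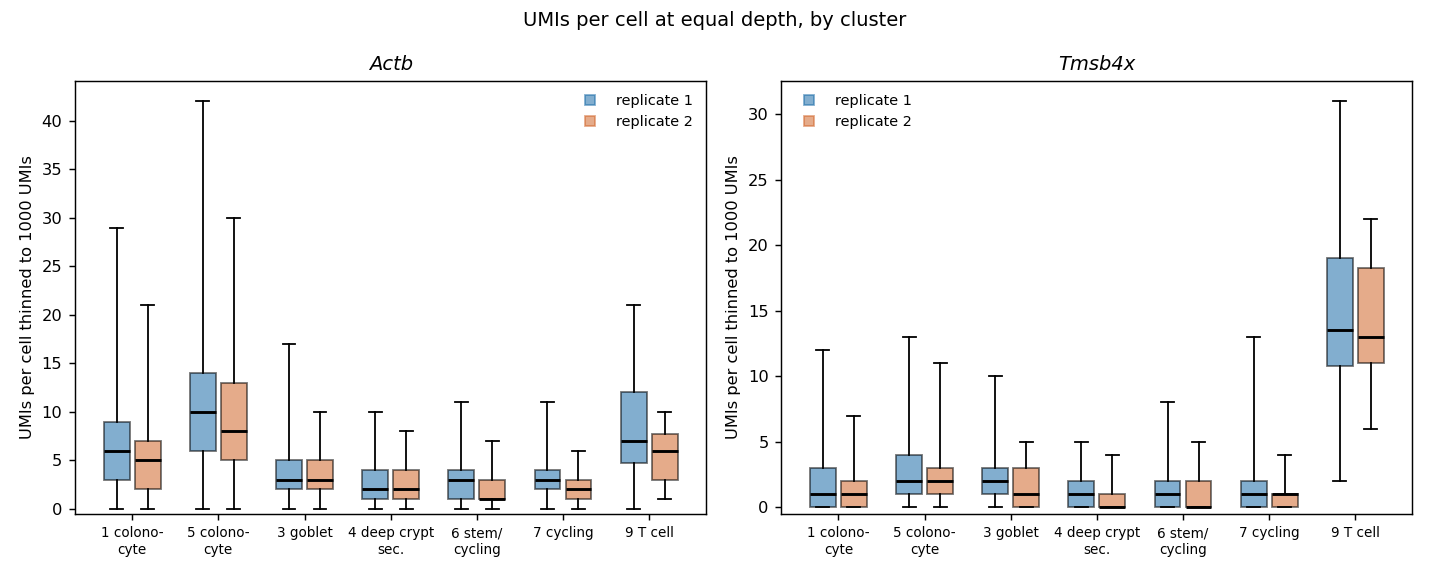
Actb (left) and Tmsb4x (right) UMIs per cell after thinning to 1000 UMIs (vertical axes), by cluster, for replicate 1 (left box of each pair) and replicate 2 (right box). Boxes span the quartiles, black lines mark medians and whiskers reach the lowest and highest cell. Cluster 5 had the highest Actb medians (10 and 8), and the T cell-like cluster 9 stood apart in Tmsb4x with medians of 13.5 and 13.

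Other measures moved with this difference. Cluster 5 had a median of 5095.5 UMIs and 8.46% mitochondrially encoded UMIs per cell, against 5480 and 7.10% in cluster 1. The 12 immediate early genes, which dissociation can induce, summed to 1635 and 1425 CPM in cluster 1 and to 2364 and 2065 CPM in cluster 5, and to a higher 4220 and 4240 CPM in deep crypt secretory-like cells, where Actb was low. Their part in the Actb difference was not tested. Computed from UMIs outside mitochondrially encoded genes, the log2 ratio of the Actb CPM in cluster 5 to that in the other colonocyte-like cells (mean of the 2 libraries) was 0.87, against 0.83 with all UMIs.

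When the colonocyte-like cells were clustered again by themselves, a step added after the data were seen and given with no test, high Actb was found in 3 of 6 sub-clusters with at least 5 cells in each library. Sub-cluster 2, led by Cyp2c55 and Aqp8 and drawn mostly from cluster 5 (131 of its 143 cells), had 12483 and 11060 CPM. Sub-cluster 5 had 10319 and 7679 CPM and sub-cluster 6 had 14096 and 9306 CPM. These last were shallow, with medians of 2046 and 1853.5 UMIs and 12.7% and 13.9% mitochondrially encoded UMIs, and goblet genes (Fcgbp, Clca1, Tff3) led sub-cluster 5. Sub-cluster 1, led by Fabp6 and Slc37a2, had 6536 and 6849 CPM. Sub-cluster 3, led by Reg3b, Reg3g and ribosomal protein genes, had 6764 and 5576 CPM, and sub-cluster 4, led by Gsdmc4 and Gsdmc, had 6929 and 5592 CPM. Of the cells of sub-cluster 3, 75 came from cluster 1 and 49 from cluster 5. Sub-cluster 3 had the lowest Ezr of the 6 in both libraries, 967 and 703 CPM, and the lowest Actn4, 1168 and 913 CPM, while its Tmsb4x (2706 and 1884 CPM) lay above that of sub-cluster 1 (1551 and 1331 CPM).

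**Figure D4:**
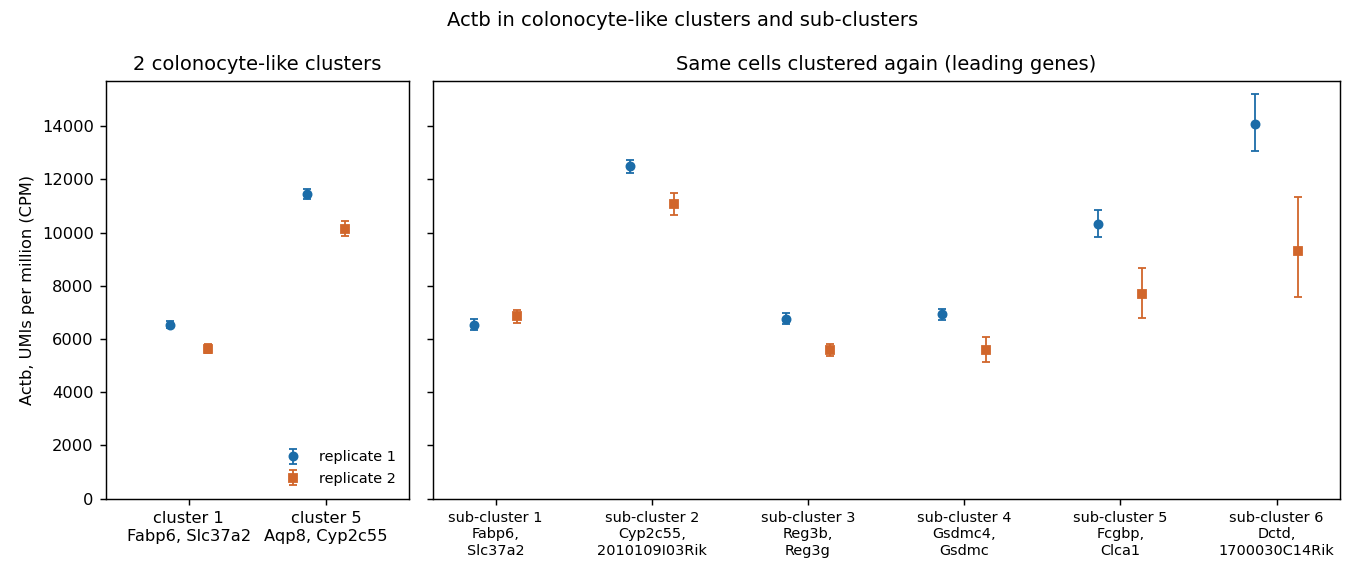
Actb in CPM (vertical axis, from 0) in the 2 colonocyte-like clusters (left) and in the 6 sub-clusters of the same cells with at least 5 cells in each library (right), for replicate 1 (circles) and replicate 2 (squares), with 95% exact Poisson intervals. Sub-cluster 2, with Cyp2c55 leading, lay at 12483 and 11060, above sub-clusters 1, 3 and 4 in both libraries.

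In the T cell-like cluster the pattern of the 8 genes was another. It was identified by Ccl5, Gzma, Gzmb, Cd7 and Trbc2, and all 15 T cell markers were detected in both libraries, summing to 26784 and 20857 CPM against 46.7 to 131 CPM in the epithelial classes. Its cells were shallow (median 1708 UMIs). Goblet markers summed to 7398 and 6704 CPM there, against 184381 and 160286 CPM in goblet-like cells, and colonocyte markers to 1847 and 2328 CPM, so that some epithelial RNA was counted in these barcodes. B or plasma cell markers reached 28139 CPM in replicate 1, where Igha led, and 140 CPM in replicate 2, and 3 barcodes held over 1% immunoglobulin UMIs. The part of this RNA in the values below was not tested, apart from leaving out those 3 barcodes.

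Tmsb4x in T cell-like cells was fitted at 3.74 ± 0.10 above the mean of the epithelial classes, and at 3.87 without the 3 immunoglobulin-rich barcodes. All cells of the cluster held at least 2 Tmsb4x UMIs after thinning to 1000, with medians of 13.5 and 13. Actb was 1.34 ± 0.12 higher and Arpc2 1.07 ± 0.21 higher, at 732 CPM (95% interval 567 to 930) and 838 CPM (497 to 1324). Actg1 (0.44 ± 0.15) and Pfn1 (0.49 ± 0.23) were close to the epithelial mean and turned slightly negative when no composition scaling was used. Tmsb10 came from 14 and 5 UMIs, or 153 and 233 CPM, with a fitted difference of 1.59 ± 0.42. Ezr was at 382 and 279 CPM and Actn4 at 328 and 233 CPM, within the range of the crypt classes or just outside it, from 35 and 6 and from 30 and 5 UMIs. In CPM, Actb in T cell-like cells lay below colonocyte cluster 5 in both libraries (7660 and 5354 against 11444 and 10147), as did Ezr and Actn4. The fit of T cell-like cells against cluster 5, with composition scaling, gave 0.47 for Actb, -0.94 for Ezr and -1.28 for Actn4, against a median of 1.30 over all genes tested, so the direction for Actb depends on the scaling.

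The 132 other genes of the actin lists found in the files, in 11 roles, were tested with edgeR's quasi-likelihood test and Benjamini-Hochberg adjustment over all readout genes (adjusted p under 0.05). In colonocyte-like cells 120 of them could be tested, of which 61 were higher and 15 lower than the mean of the other 4 epithelial classes. Together these were 63.3% of the list, against 40.7% called among all 7993 genes tested, 20.3% higher and 20.4% lower. The median log2 difference was 0.45 over the list and -0.01 over all genes tested. With library sizes alone 46 were higher and 19 lower. The lists were drawn up with earlier results of these data known.

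Several of the 10 largest increases in colonocyte-like cells encode microvillar or terminal web proteins. Espn (espin, a bundler of microvillar filaments) was 3.13 ± 0.15 higher (edgeR adjusted p = 3.28e-50), at 273 and 242 CPM against 93.4 and 123 CPM in goblet-like and 18.8 to 37 CPM in crypt classes. Slc9a3r1, the scaffold bound by ezrin, was 2.82 ± 0.13 higher, at 321 and 296 CPM against 31.2 to 80.1 CPM in the other epithelial classes. The bundling and capping protein genes Eps8 (2.15 ± 0.13) and Eps8l2 (2.84 ± 0.16) and the nucleator gene Cobl (2.16 ± 0.16) were higher too. Myh14, a non-muscle myosin II heavy chain, was at 802 and 559 CPM in colonocyte-like cells against 58.1 to 185 CPM elsewhere in the epithelium (3.01 ± 0.11). Rhoc, a small GTPase, gave the highest value, 3.73 ± 0.12, at 547 and 531 CPM against 196 and 212 CPM in goblet-like and 19.4 to 46.8 CPM in crypt classes. Coro2a (3.28 ± 0.13), Iqgap2 (2.44 ± 0.10) and the capping protein gene Capg (2.35 ± 0.21) completed the 10 largest increases. Of the cross-linkers and bundlers 9 of 17 were higher and 5 lower, of the severing and disassembly genes 8 of 16 higher and 2 lower, and of the tropomyosins and myosins 10 of 19 higher and 1 lower.

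The lower calls included the other non-muscle alpha-actinin. Actn1, encoding alpha-actinin-1, fell by 3.96 on the log2 scale (SE 0.19; edgeR adjusted p = 1.25e-49). Its level was 14.5 and 12.8 CPM there, 160 and 128 CPM in the goblet-like class and 221 to 391 CPM in the 3 crypt classes. Actn4 ran the other way, so that the 2 non-muscle alpha-actinins had opposite orders over these classes in both libraries. Tpm4, a tropomyosin, fell by 2.00 on the log2 scale (SE 0.15), at 52.6 and 46.5 CPM against 77.7 to 367 CPM. Baiap2l2 (-3.45), Avil (-3.19), Mical1 (-3.01), Twf2 (-1.75) and Cotl1 (-1.19) were lower as well. The calls of Spire1 (-1.74), Wasf1 (-1.01) and Flna (-0.99) were lost under 3, 5 and 5 alternative settings, Wasf1 with thinned sums reaching 0.0024.

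**Figure D5:**
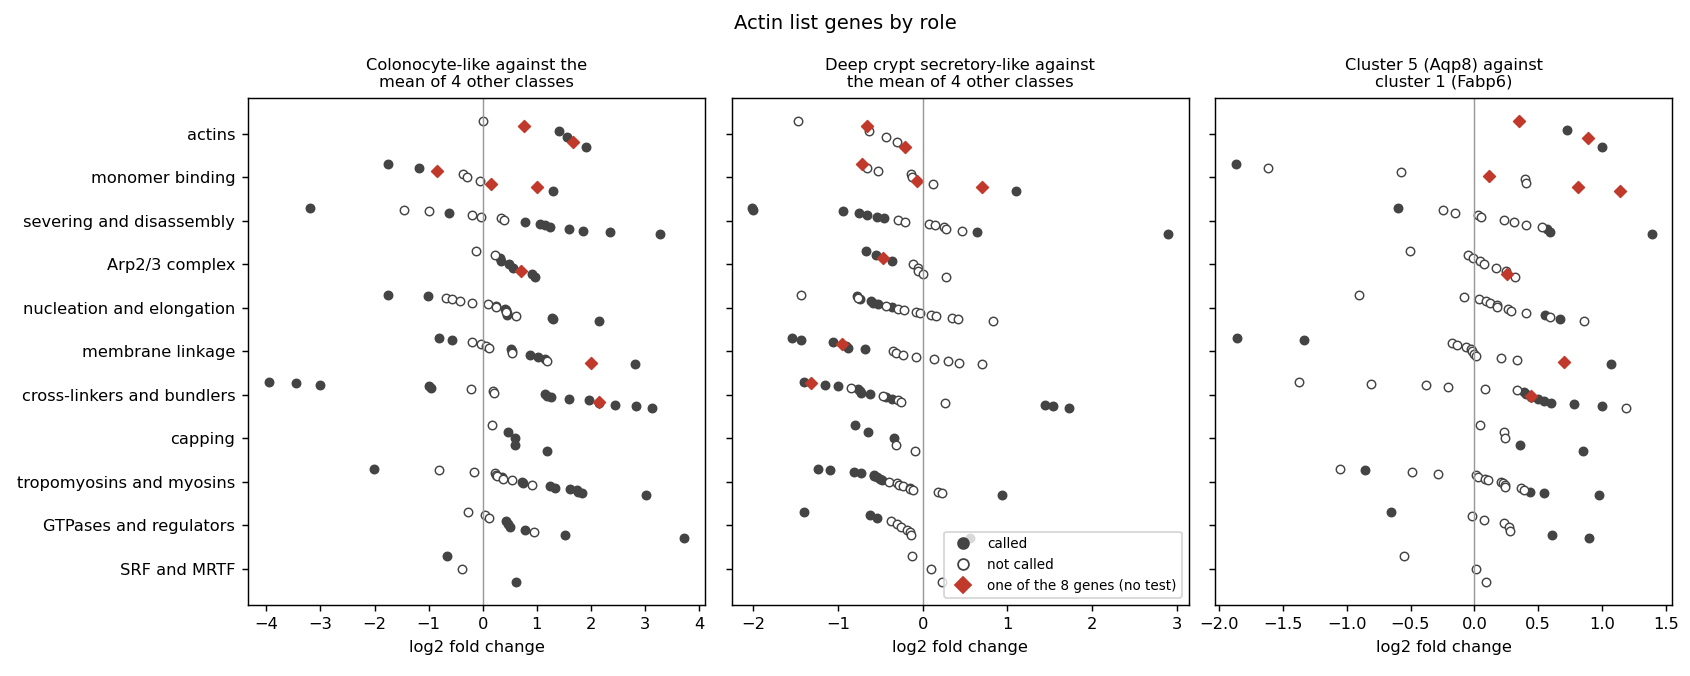
Fitted log2 fold change (horizontal axes) of each actin list gene by role, for colonocyte-like cells, for deep crypt secretory-like cells and for colonocyte cluster 5 against cluster 1. Filled circles are genes called at adjusted p under 0.05, open circles genes not called, and red diamonds the 8 genes described without a test. In colonocyte-like cells 61 of 120 genes were called higher and 15 lower, and in deep crypt secretory-like cells 8 higher and 46 lower.

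The crypt classes had the reverse balance. This is in part built in, since each class was set against the mean of the others in the same fit. A gene higher in colonocyte-like cells is then lower on average in the other classes, so these counts are not a separate finding. In deep crypt secretory-like cells 8 of the 120 genes were higher and 46 lower, against 9.5% and 8.09% among all genes tested, with a list median of -0.31 against 0.03. Avil (advillin, 2.90 ± 0.28), Baiap2l2 (1.73 ± 0.29), Mical1 (1.54 ± 0.23) and Actn1 (1.45 ± 0.12) had the largest increases, and Coro2a (-2.01 ± 0.23), Capg, Rdx and Slc9a3r1 (-1.44 ± 0.21) the largest decreases. Rdx (-1.54 ± 0.58) rests on 6 UMIs and kept its call in 1 of 10 alternatives. In stem/cycling cells 6 were higher and 28 lower (8.28% and 7.79% of all genes), among them Baiap2l2 (1.74), Add3 (1.29), Flna (1.26) and Pls3 (1.07) higher and Avil (-3.35), Scin (-3.32), Gsn (-2.20) and Rhoc (-2.03) lower. In cycling-like cells 5 were higher and 35 lower (12.3% and 6.96% of all genes), with Cap2 (1.54), Actn1 (1.34), Flna (1.28) and Add3 (0.82) higher and Gsn (-2.51), Rhoc (-2.32), Myh14 (-1.86) and Espn (-1.83) lower. In stem/cycling cells the calls of Flna, Avil and Pls3 were lost under 4, 2 and 1 of 8 alternatives, and in cycling-like cells those of Flna, Add3 and Gsn under 2, 2 and 1 of 8. With library sizes alone and no composition scaling, the split became 12 higher and 20 lower in stem/cycling and 14 higher and 27 lower in cycling-like cells.

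The 3 largest increases in goblet-like cells were of gelsolin-family genes, whose proteins sever or cap filaments. Scin, encoding scinderin, was at 701 and 471 CPM there against 13.9 to 138 CPM in the other epithelial classes (3.80 ± 0.13; edgeR adjusted p = 2.08e-67). Gsn, gelsolin itself, was at 796 and 842 CPM against 459 and 379 CPM in colonocyte-like cells and 42.8 to 276 CPM in the crypt classes (2.85 ± 0.11). Avil was at 71.5 and 97.2 CPM against 51.6 and 97.4 CPM in deep crypt secretory-like cells, which overlapped, and 1.26 to 21.5 CPM elsewhere in the epithelium (3.66 ± 0.27). Rhoc was 2.02 ± 0.15 above the mean of the class levels but below colonocyte-like cells, and against all other epithelial cells summed its difference was -0.14. In all 40 of 120 genes were called higher and 2 lower (Msn and Add3), against 21.2% of all genes called, 12.4% higher and 8.72% lower, and 22 higher and 11 lower with library sizes alone. Against all other epithelial cells summed, where classes are not weighted equally, 33 list genes were higher and 8 lower. Msn and Add3 lost their calls under 7 and 5 of 10 alternatives.

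Between the colonocyte-like clusters, 101 other list genes could be tested and 23 were higher and 6 lower in cluster 5, against 4.99% and 4.53% of the 5536 genes tested, with a list median of 0.21 against -0.01. Slc9a3r1 was at 229 and 210 CPM in cluster 1 and at 442 and 453 CPM in cluster 5 (1.07 ± 0.14; edgeR adjusted p = 6.94e-13). Capg (1.39 ± 0.22), Eps8l2 (1.00 ± 0.15), Espn (0.78 ± 0.14), Eps8 (0.60 ± 0.14), Vil1 (villin, 0.57 ± 0.13), Pls1 (plastin-1, 0.55 ± 0.12) and the brush border myosin gene Myo7b (0.98 ± 0.16) were called higher, Capg and Eps8l2 under the rule for named genes and the others picked after their values were seen. In the roles of these genes, 8 of 15 cross-linkers and bundlers were called higher and 0 lower. Of 12 severing and disassembly genes 3 were higher and 1 lower, and of 17 tropomyosins and myosins also 3 and 1. Of 12 membrane linkage genes 1 was higher and 2 lower, and the rest of each role was not called. The 8 other Arp2/3 complex genes lay between -0.51 (Arpc5l) and 0.32 (Arpc4) and did not pass the test. Slc9a3r1 kept its call under all 9 alternatives. Capg and Eps8l2 each lost it under 1 of 9, when the clusters were formed from all other genes. Without the library block only 3 list genes were called, which were Slc9a3r1, Capg and Eps8l2. The higher genes picked afterwards (Espn, Eps8, Vil1, Pls1 and Myo7b) were thus not called under that setting. Their calls under the other alternatives were not counted gene by gene. Actg2 (1.00 ± 0.34) was called here but under none of 9 alternatives. The lower genes included Cotl1 (-1.87 ± 0.45), Rdx (-1.86 ± 0.65), Add3 (-1.33 ± 0.37) and Tpm4 (-0.85 ± 0.26), whose calls were lost under 3 of 9, 4 of 7, 5 of 9 and 5 of 9 alternatives.

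The count depends on how these 2 clusters were drawn and fitted. It was 29 of 101 genes in all, but 12 with DESeq2, 18 with sums thinned to equal depth and 3 without the library block. It was 4 when all genes outside the actin, mitochondrial and immediate early lists formed the clusters. The fit had 1 residual degree of freedom.

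In T cell-like cells 33 of 124 other list genes were higher and 11 lower than the mean of the epithelial classes, against 9.98% and 2.17% of the 8063 genes tested. With library sizes alone the list split was 27 higher and 19 lower. The fitted list median was 0.26, and the fitted median over all genes was 0.20. The list median was 0.65 when genes at 0 in any class took their CPM ratio over summed classes instead. That ratio has no composition scaling and was set to a bound where a summed count was 0. The median over all genes was not computed in this way, so 0.65 cannot be set against 0.20. The largest increases were of genes known from blood cells. Rac2, a GTPase of blood cells, was at 973 and 1350 CPM against 1.94 to 10.7 CPM in epithelial classes. With both libraries and all epithelial classes summed, its CPM ratio was 225 (95% exact interval 159 to 323). Evl, a filament elongation factor, had a ratio of 202 (99 to 438), Hcls1, the leukocyte relative of cortactin, 153 (81.4 to 297), and Arhgdib, a GDP dissociation inhibitor, 133 (79.6 to 225). Coro1a, at 295 and 419 CPM against 0 to 5.83 CPM, and Lcp1, at 1136 and 1257 CPM against 11 to 67.1 CPM, were picked after their values were seen. Of 8 other Arp2/3 complex genes 6 were called higher, with Actr3 at 994 and 1210 CPM against 339 to 844 CPM.

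The 4 largest decreases were of genes known from the brush border. Vil1 had 2 UMIs in T cell-like cells, a CPM ratio of 0.0631 (0.00764 to 0.228) to the summed epithelial classes. Myo1a, the brush border myosin I, also had 2 UMIs (ratio 0.0672, 0.00813 to 0.243) and Eps8l3 had 1 (0.0534, 0.00135 to 0.298). Myo7b had none, so that it was at least 3.62-fold lower when a count of 3 is taken as the floor over the class. The calls of Eps8l3 (DESeq2 and thinned sums), Vil1 (thinned sums) and Myo7b (DESeq2) were lost under 2 of 11, 1 of 11 and 1 of 10 alternatives. Dstn (destrin), a relative of cofilin picked after its values were seen, was at 306 and 605 CPM against 789 to 2444 CPM in epithelial classes. At this depth lower levels were hard to detect. In data simulated for the 8063 genes of this comparison, 10 of 50 genes lowered 4-fold and 42 of 50 raised 4-fold were called. These genes were drawn from those with higher UMI counts, so recovery of genes with few UMIs was not tested.

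Profiles most like those of the actins were ranked over 10 clusters and 2931 genes by the lower of the 2 libraries' correlations of log2(CPM + 10). The 10 clusters counted equally and included the T cell-like cluster and the unnamed clusters 2, 8 and 10. Among these, cluster 2 was shallow (median 1544 UMIs) and cluster 8 had 41.6% mitochondrially encoded UMIs. How far barcode quality shaped the correlations was not tested. Closest to Actb were Lrrc58 (r of 0.92 in replicate 1 and 0.96 in replicate 2), Slc9a3r1 (0.93 and 0.90), Isg15 (0.89 and 0.94), Mcl1 (0.96 and 0.89) and Dgka (0.96 and 0.89). Closest to Actg1 were Erbb2ip (0.93 and 0.89), Sft2d2, Cdc42 (0.90 and 0.87), Chmp4b and Picalm. Closest to Tmsb4x were Junb (0.91 and 0.92), Ptk2b, Btg1 (0.98 and 0.90), Tonsl and Myl12a (0.88 and 0.90), with the T cell-like cluster far above the others for Tmsb4x. Of the 15 genes named, Slc9a3r1, Cdc42 and Myl12a belong to the actin lists. The Actb and Actg1 profiles correlated with each other at 0.77 and 0.55.

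Some of the 8 genes differed between libraries in the same direction in each of the 10 clusters compared, which leave out the small tuft-like cluster. Tmsb10 was higher in replicate 2 in 10 of 10 clusters, with a median log2 difference of 0.70, while Pfn1 (-0.49) and Ezr (-0.36) were lower in replicate 2 in 10 of 10. Tmsb4x (-0.41), Actb (-0.19) and Actn4 (-0.17) were lower in replicate 2 in 9 of 10 clusters. Actg1 and Arpc2 were higher in replicate 2 in 3 and 2 of 10. The fits between classes held the library as a block. In the 3 clusters left unnamed Actb was at 5229 and 4856 CPM (cluster 2), 2399 and 3104 CPM (cluster 8, with 41.6% mitochondrially encoded UMIs) and 2936 and 2648 CPM (cluster 10).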

How the data were processed

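The authors deposited a table of UMI counts per gene and barcode for each library (inDrop with CEL-Seq, NextSeq500). Per the submitters' processing notes, genome builds GRCm38 and GRCh38 were used. Aligner, annotation, strand and barcode filter: not given in the sources used here. All barcodes passed minimums of 500 UMIs and 250 genes. The 5% of barcodes with the highest doublet score (2 simulated pairs per barcode, 50 neighbours) were left out of each library. A hash (md5) of each symbol divided the genes into 12716 for clustering and 12788 for readout. Marker genes were always in the first set, and actin list, immediate early and mitochondrially encoded genes always in the second. Cells were clustered (1500 variable genes, 30 components, 15 neighbours, Leiden resolution 1) and clusters named from marker lists. Raw counts were summed per class and library, and classes compared with edgeR 4.0.16 (R 4.3.3, quasi-likelihood test, library as block, Benjamini-Hochberg adjustment) over genes with at least 20 UMIs in the sums, scaled by TMM factors from genes with at least 5 expected UMIs in the smallest sum, a minimum set after the shallow T cell-like sums were seen. A class was set against the equally weighted mean log level of the others. Both libraries come from 1 mouse, and each contributes cells to every class, so the block pairs sums from 1 library. The fits had 4 (epithelial), 1 (colonocyte clusters) and 5 (T cell-like) residual degrees of freedom, and summed cells held 21480 to 2830724 UMIs. In data simulated for the epithelial comparison with 7993 genes, 48 of 50 genes raised 2-fold in colonocyte-like cells, the deepest class, were called. The changed genes were drawn from those with higher UMI counts, and no difference between libraries was simulated. Recovery of genes with few UMIs, or in smaller epithelial classes, was not tested. Intervals of levels are exact Poisson intervals and those of ratios exact binomial ones, at 95%, covering counting error only. Named list genes are, per contrast, those called with the largest fold changes in each direction with the same sign in both libraries and at least 20 UMIs in the higher group (10 each way for colonocyte-like cells, 4 each way otherwise), plus the 5 genes most like Actb, Actg1 and Tmsb4x. The genes described, the lists, and the naming rule were chosen with earlier results of these data known. Alternatives tried were DESeq2 1.42.0, no block, other scaling, thinned sums, other clusterings, doublet and mitochondrial settings, and other reference cells.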

Additional observations from a re-analysis of the deposited data

How the results depend on the processing

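Calls were counted again under each alternative. With sums thinned to equal depth, genes called numbered 1483 (colonocyte-like, 3254 before), 858 (goblet-like, 1692), 711 (deep crypt secretory-like, 1406), 781 (stem/cycling, 1285), 942 (cycling-like, 1539), 290 (colonocyte clusters, 527) and 209 (T cell-like, 980), and actin list genes 35 of 54 (deep crypt), 22 of 34 (stem/cycling), 18 of 29 (clusters) and 15 of 44 (T cell-like). With no replicate block, genes called were 1127 (goblet-like), 874 (deep crypt), 736 (stem/cycling), 1025 (cycling-like) and 85 (clusters), and list genes 21 (stem/cycling) and 3 (clusters). At resolution 0.5 there were 1082 (goblet-like, 26 list genes against 42) and 2348 (deep crypt), and with no doublet filter 996 and 2400; the stem/cycling and cycling-like classes gave no value under these 2 settings. For the colonocyte clusters DESeq2 called 189 genes and 12 list genes, 1 fit over all clusters 324 genes, and clusters from all other genes 244 and 4 list genes. Under that last setting the genes tested outside the actin, immediate early and mitochondrial lists had also formed the clusters, so the 244 is no independent count. The Actb log2 ratio of cluster 5, 0.83, was 0.87 outside mitochondrially encoded genes, 0.77 as a mean of per-cell CPM, 0.55 with clusters from all other genes, and 0.81 to 0.85 without either library. Among named list genes, signs reversed for Wasf1 in colonocyte-like cells (0.0024, thinned), Rhoc in goblet-like cells (-0.14, against all other epithelial cells summed) and Tpm4 between the clusters (0.22, clusters from all other genes). Among the 8 described genes the fitted sign changed for Pfn1 in colonocyte-like (3 of 10 alternatives), deep crypt (4 of 10) and T cell-like cells (1 of 11), Actb and Actg1 in goblet-like cells (2 of 10 each), Actg1 and Ezr in T cell-like cells (1 and 6 of 11), and Arpc2 and Actn4 between the clusters (1 of 9 each). The cause was not tested, except that thinning leaves fewer UMIs.

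Scaling moved the balance of calls. With library sizes alone, higher and lower calls were 1246 and 2232 (colonocyte-like), 627 and 1451 (goblet-like), 1035 and 456 (deep crypt), 1036 and 390 (stem/cycling), 1422 and 366 (cycling-like) and 523 and 336 (T cell-like), with median shifts over all genes of -0.24, -0.29, 0.14, 0.21, 0.20 and -0.48. DESeq2 gave 1206 and 97 in T cell-like cells (shift 0.64), with 40 list genes higher and 6 lower. Of 66 named gene and contrast pairs, 40 kept their call under every alternative. No colonocyte-like cluster was shallow enough for the alternative that leaves such clusters out. The fit over all clusters, the sub-clusters and the contrast of T cell-like cells with cluster 5 were added after seeing the data. Leaving out a library ends all tests, since 1 sum per class then remains.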
